A study of Mus musculus with 12 samples.

Results

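The genes followed here are 9 factors by which excitatory neurons of the cerebral cortex and their precursors are told apart, namely Bcl11b, Tbr1, Fezf2, Sox5, Cux1, Cux2, Rorb, Reln and Eomes. They were taken as every probeset of the main type that carries one of these symbols, which gave 226 probesets for 9 of the 17279 genes measured. RNA came from the total brains of newborn female mice, 6 wildtype (KIS +/+) and 6 KIS-ko (KIS -/-), and each of 6 litters gave 1 pup of each genotype. KIS is a protein kinase encoded by Uhmk1 that phosphorylates the splicing factor SF1, and the comparison asks which transcripts differ in the newborn brain without it. The mice had been backcrossed to C57BL6/N, the knockout was constitutive, and no agent was given to either group. Each brain was measured on 1 Affymetrix Mouse Exon 1.0 ST array, on which the probes of an exon, or of a part of it, form a probeset.

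Excitatory neurons of the cortex are laid down from the inside out, so that deep-layer neurons are born first and upper-layer neurons later. Fezf2 and Bcl11b (also known as CTIP2) are transcription factors of the deep-layer neurons that project to the brainstem and spinal cord, Tbr1 marks the corticothalamic neurons of layer 6 and the subplate, and Sox5 regulates the order in which deep-layer types emerge. Cux1 and Cux2 are homeodomain factors of the upper layers, and Rorb is a nuclear receptor best known from layer 4. Reln encodes reelin, the secreted protein of the Cajal-Retzius cells of the marginal zone that guides the layering, and Eomes (Tbr2) is the factor of the intermediate progenitors that divide to give neurons. Outside the cortex Bcl11b is also made by striatal neurons, Reln by cerebellar granule cells and interneurons, and Tbr1 and Eomes by projection neurons of the olfactory bulb, so that values from a total brain sum over these sources. In such bulk RNA, fewer cells of a type and less RNA per cell cannot be told apart.

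The gene value used throughout is the mean over the probesets of a gene of log2(signal + 16), where the signal is the deposited linear intensity. Probes differ in brightness, so a gene value is compared between arrays only and never with that of another gene. The targeted gene matched the labels, since the gene value of Uhmk1 differed by -2.11 (standard error 0.068, adjusted p = 2.9e-07 from limma, n = 6 litters) and was lower in KIS-ko in 6 of 6 litters. The array medians still differed after the normalization of the authors, from 473 to 526 in wildtype and from 460 to 517 in KIS-ko, and in 5 of 6 litters the KIS-ko pup had the lower one. Over all genes 69.8% were lower in KIS-ko, whatever the size, and the median difference was -0.036 on the log2 scale.

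At birth the mean signal of each of the 9 genes was above background, that of Cux1 being taken over all its transcripts. The mean signal of each lay above 713, the 95th percentile of 5222 intron control probesets, as did that of 41.9% of all genes. Of the 224 probesets of these genes that passed the filter on spread, 179 (79.9%) were above this control level, against 44.6% of all probesets kept. Reln alone gave 73 of the 179, and the shares were lowest in Eomes (8 of 13) and Rorb (10 of 16). Of a list of genes of cortical projection neurons in general, 19 of the 19 measured were above the control level. These include Neurod2, Neurod6, Bcl11a and Slc17a7, the vesicular glutamate transporter of cortical neurons. Of 11 measured genes of Cajal-Retzius cells and the marginal zone 6 were above it, Reln and Car10 among them, and the other 5 (Trp73, Lhx1, Lhx5, Ebf2 and Nhlh2) were not. Of 13 measured genes of intermediate progenitors 5 were above it, Eomes and Insm1 among them, while Neurog1 and Neurog2 were not.

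The change within litters was small for every one of the 9 factors, and none passed the test. Of the 9, 4 were higher and 5 lower in KIS-ko, with log2 differences from -0.061 for Rorb to 0.075 for Fezf2 and a median of -0.0042. The adjusted p from limma lay between 0.689 and 1.00, against 1 gene called of 17279 (0.00579%), which is Uhmk1. Before adjustment 0 of 9 factors had a p under 0.05, against 6.16% of all genes. The 95% intervals of limma, taken over the 9 factors, reached from 0.887-fold (Rorb) to 1.15-fold (Fezf2). Each factor has its own, narrower interval, that of Cux1 running from 0.925-fold to 1.08-fold. These intervals hold for the arrays as deposited only, since the differences moved when the arrays were centred. The wildtype and KIS-ko ranges overlapped for 9 of 9 factors, and 0.208% of all genes had ranges that did not. Centring each array on its median left 1 of 9 factors lower in place of 5, and moved the median over all genes from -0.036 to 0.020. The weighted mean ratio of pairs that the methods of the study use ran from 0.968 for Rorb to 1.07 for Fezf2. It was above 1 for 8 of 9 factors and for 43.8% of all genes, and taken as a ratio of group means it was above 1 for 6 of 9.

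**Figure D1:**
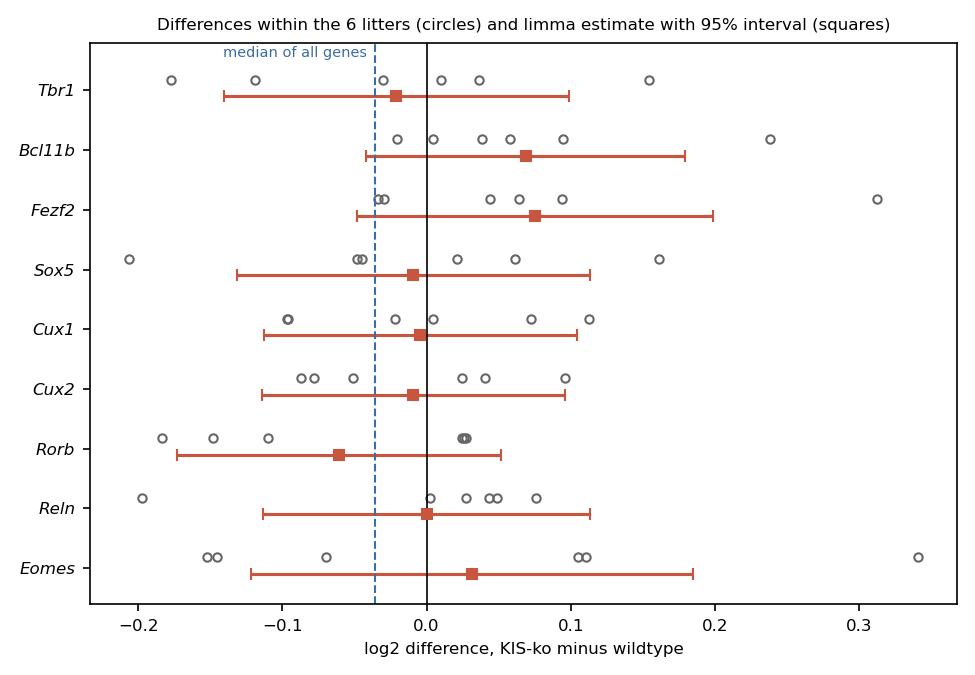
Log2 difference, KIS-ko minus wildtype, of the 9 factors (vertical axis, 1 line per gene). Circles are the 6 litters, squares the limma estimate with its 95% interval, and the dashed line the median of all genes (-0.036). All 9 intervals include 0, and the circle furthest to the right for Fezf2 and for Eomes is litter 4.

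Among the deep-layer factors, Bcl11b and Fezf2 had the highest differences of the 9 factors, and neither passed the test. Bcl11b is listed on chromosome 12 from 109153642 to 109241353 (minus strand). Its gene value had a lowest, median and highest array of 10.05, 10.29 and 10.47 in wildtype and of 10.19, 10.33 and 10.45 in KIS-ko. The KIS-ko range lay inside the wildtype range, and the pup of lowest value was the wildtype of litter 5. The means were 10.26 ± 0.145 and 10.33 ± 0.093 (SD, n = 6 each), which is a difference of 0.069 (standard error 0.050, 95% interval -0.042 to 0.18, adjusted p = 0.689 from limma). It was higher in KIS-ko in 5 of 6 litters, mostly through litter 5 with 0.24, and without litter 5 the difference was 0.035.

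Fezf2, on chromosome 14 from 13174945 to 13177930 (minus strand), acts upstream of Bcl11b in the subcerebral neurons. Its wildtype arrays ran from 10.53 through a median of 10.67 to 10.83, and its KIS-ko arrays from 10.60 through 10.74 to 10.88. Both groups spread over nearly the same range, with the 2 highest KIS-ko pups, in litters 1 and 4, just above the highest wildtype pup. The difference was 0.075 (standard error 0.056, 95% interval -0.048 to 0.20, adjusted p = 0.690 from limma), with means of 10.66 ± 0.109 and 10.74 ± 0.129 (SD, n = 6 each). It was higher in KIS-ko in 4 of 6 litters. Litter 4 stood apart with 0.31, the other litters lay between -0.033 and 0.094, and without litter 4 the difference was 0.028. With the array medians of the gene values subtracted, litter 4 was at 0.21 and no longer apart, as litter 2 was at 0.23 and the other litters between -0.018 and 0.13. For these deep-layer genes the scaling of the arrays decided the unadjusted p, as limma gave 0.012 for Fezf2 and 0.040 for Bcl11b on arrays centred on their medians, with an adjusted p of 0.733 for both.

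Tbr1 lies on chromosome 2 from 61642703 to 61652015 (plus strand). Its gene value ran from 11.18 through a median of 11.25 to 11.39 in wildtype and from 11.19 through 11.22 to 11.40 in KIS-ko. These ranges were nearly the same, with the wildtype of litter 1 and the KIS-ko of litter 4 at the top of each. The difference was -0.021 (standard error 0.054, 95% interval -0.14 to 0.099, adjusted p = 0.890 from limma), and Tbr1 was lower in KIS-ko in 3 of 6 litters. The sign rested on 1 probeset, since without the first one, which is dim and marked as open to cross-hybridization, the difference was 0.0031.

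Sox5, on chromosome 6 from 143781784 to 144157968 (minus strand), had the widest spread between wildtype pups of the 9 factors. In wildtype its lowest, median and highest arrays were at 9.35, 9.70 and 9.86, and in KIS-ko at 9.42, 9.69 and 9.76. Both pups of litter 5 were the lowest of their genotype, and the groups overlapped. The difference was -0.0092 (standard error 0.055, 95% interval -0.13 to 0.11, adjusted p = 0.954 from limma). The SD between pups was 0.182 in wildtype and 0.126 in KIS-ko (n = 6 each). A list of 19 measured deep-layer factors and markers, these 4 included, had 11 genes lower, a median of -0.0092 and 0 called. None of them had an unadjusted p under 0.05, and the largest difference was that of Lmo3, a LIM domain gene, at -0.10 (adjusted p = 0.685 from limma).

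The gene values of the upper-layer factors Cux1 and Cux2 differed by less than their standard errors. That of Cux1 averages 44 probesets of several transcripts, which are described further on. Cux1 lies on chromosome 5 from 136724098 to 137043106 (minus strand). Its arrays ran from 10.12 through a median of 10.14 to 10.23 in wildtype and from 10.06 through 10.16 to 10.23 in KIS-ko. The pups lay close together, in overlapping groups. The difference was -0.0042 (standard error 0.049, 95% interval -0.11 to 0.10, adjusted p = 0.977 from limma), and Cux1 was lower in KIS-ko in 3 of 6 litters.

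Cux2, on the same chromosome from 122310325 to 122497825 (minus strand), ran from 9.60 through 9.86 to 9.91 in wildtype and from 9.70 through 9.82 to 9.89 in KIS-ko. In both genotypes the pup of litter 5 was the lowest, and the KIS-ko range lay inside the wildtype range. The difference was -0.0091 (standard error 0.047, 95% interval -0.11 to 0.096, adjusted p = 0.946 from limma).

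Rorb, on chromosome 19 from 19012373 to 19075598 (minus strand), had the lowest difference of the 9. Its wildtype pups were close together, at 9.68, 9.73 and 9.78 for the lowest, median and highest, while the KIS-ko pups spread from 9.58 through 9.67 to 9.76. The KIS-ko pups of litters 1, 5 and 6 lay below all wildtype pups, and those of the other 3 litters inside the wildtype range. The difference was -0.061 (standard error 0.051, 95% interval -0.17 to 0.052, adjusted p = 0.706 from limma), with means of 9.73 ± 0.032 and 9.67 ± 0.079 (SD, n = 6 each). It was lower in 3 of 6 litters, by 0.11, 0.15 and 0.18. With the arrays centred on their medians it was -0.0049. Of 17 measured genes of the upper-layer list, these 3 included, 10 were lower, with a median of -0.0042, 0 called and 0 at an unadjusted p under 0.05.

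**Figure D2:**
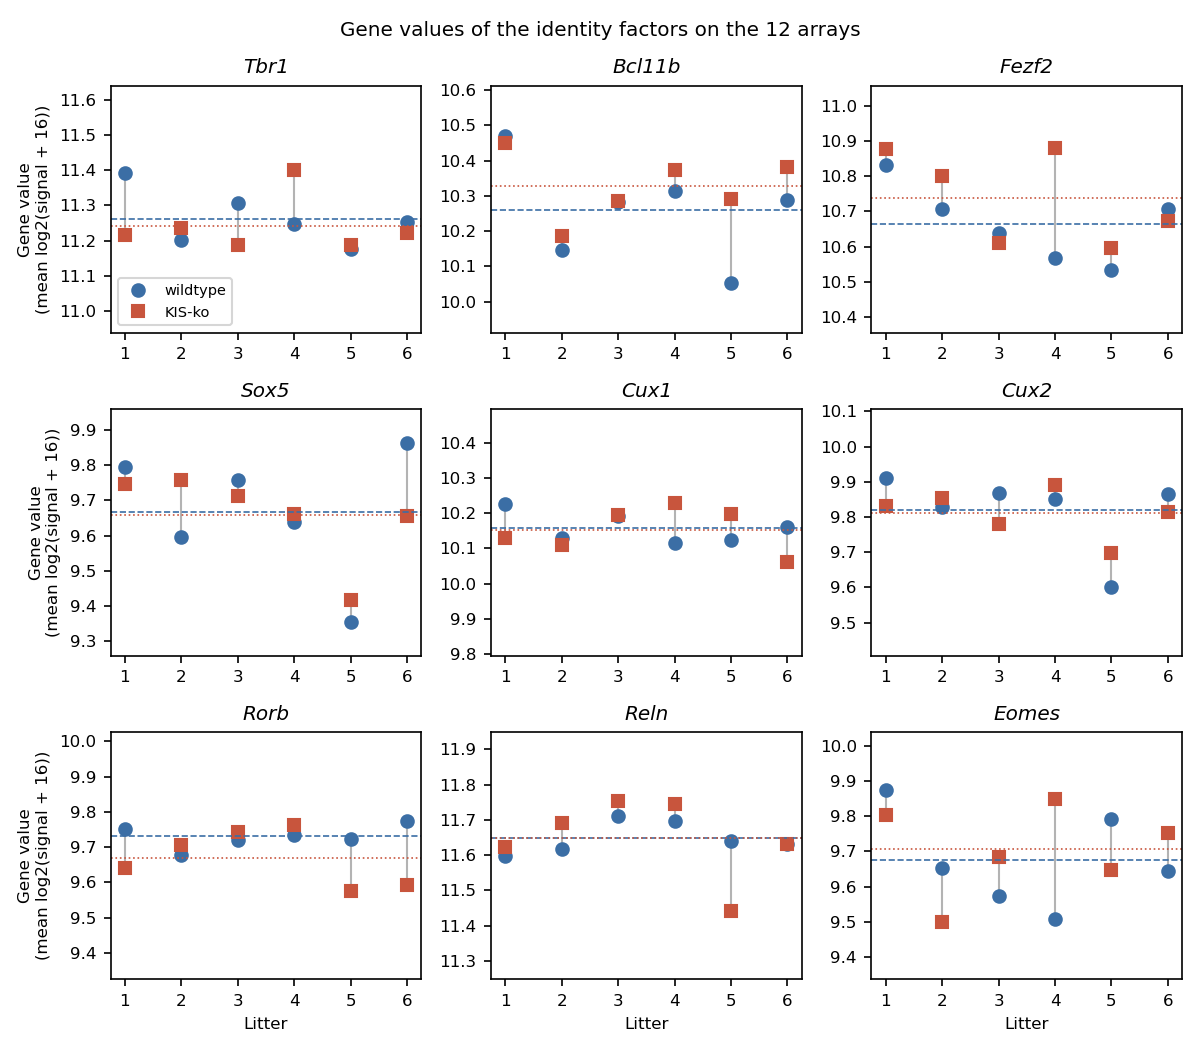
Gene value (vertical axis, mean over probesets of log2(signal + 16)) of the 9 factors in each litter (horizontal axis). Circles are wildtype and squares KIS-ko pups, with the genotype means as dashed and dotted lines, and each panel spans the same 0.7 of the log2 scale. Wildtype and KIS-ko overlap in every panel, and the points lie closest together for Cux1 and Rorb in wildtype.

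Reln, on chromosome 5 from 21390767 to 21850428 (minus strand), is covered by 74 probesets, the most of the 9. Its arrays ran from 11.60 through 11.63 to 11.71 in wildtype and from 11.44 through 11.66 to 11.75 in KIS-ko. All pups but the KIS-ko of litter 5, which was the lowest, lay in a narrow band. The means of 11.65 ± 0.045 and 11.65 ± 0.115 (SD, n = 6 each) differed by 0.00011 (standard error 0.051, 95% interval -0.11 to 0.11, adjusted p = 1.00 from limma). In 5 of 6 litters KIS-ko was higher, by 0.0024 to 0.076, and in litter 5 it was lower by 0.20. Without litter 5 the difference was 0.040.

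The genes by which cells answer reelin were measured too. The receptors differed by -0.029 for Vldlr and 0.0051 for Lrp8, and the adaptor Dab1, which is phosphorylated when reelin binds them, by -0.022 (adjusted p = 0.821, 0.969 and 0.857 from limma). Of 25 genes of the reelin pathway 19 were lower, with a median of -0.023, 0 called and 0 at an unadjusted p under 0.05. Of the 11 genes of Cajal-Retzius cells and the marginal zone, Reln included, 9 were lower, with a median of -0.031, 0 called and 0 at an unadjusted p under 0.05. These shares of lower genes stand beside 69.8% of all genes.

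Eomes, on chromosome 9 from 118387399 to 118393993 (plus strand), had the widest litter differences of the 9. Its lowest, median and highest arrays were at 9.51, 9.65 and 9.87 in wildtype and at 9.50, 9.72 and 9.85 in KIS-ko. The groups covered the same range. Within litters the KIS-ko pup was higher by 0.34 in litter 4 and by 0.11 in litters 3 and 6, and lower by 0.15 in litters 2 and 5 and by 0.070 in litter 1. The mean difference of 0.031 (standard error 0.069, 95% interval -0.12 to 0.18, adjusted p = 0.869 from limma) turned to -0.030 without litter 4. Its sign also rested on 2 of 13 probesets, described further on, since the mean of the other 11 was -0.025 and the median of all 13 was -0.034. Of the 13 genes of intermediate progenitors 7 were lower, with a median of -0.011, 0 called and 0 at an unadjusted p under 0.05. Among 14 genes of radial glia and progenitors, the cells from which Eomes-positive progenitors arise, 12 were lower and 0 called, with a median of -0.051. The median of 19 genes of cortical projection neurons in general was 0.013, with 7 lower and 0 called, and the largest difference was that of Neurod2, a factor of differentiating excitatory neurons (0.078, higher in 6 of 6 litters, adjusted p = 0.685 from limma).

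The spread between pups of a genotype was uneven over the 9 factors. The median SD between pups over the 7248 genes above the control level was 0.088 in wildtype and 0.104 in KIS-ko, and 5 and 4 of the 9 factors lay above it. Sox5, Bcl11b and Eomes had wildtype SDs above those of 94.6%, 86.3% and 83.3% of these genes. At the other end, the wildtype SDs of Rorb, Cux1 and Reln were above those of only 2.33%, 7.19% and 8.25%. In KIS-ko the 9 factors lay between 10.3% for Cux1 and 72.4% for Fezf2. The order was not the same in the other genotype, as Reln and Rorb stood at 60.8% and 23.8% there. The gene values average unlike numbers of probesets, 74 for Reln, 44 for Cux1, 18 for Sox5, 16 for Rorb and 7 for Bcl11b. The arrays were not centred for these SDs. How far either affects the ranks was not tested.

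Litters differed for Sox5 and Bcl11b before adjustment, and for none of the 9 factors after it. A limma F test between litters, added after the values were seen, gave an unadjusted p of 0.019 for Sox5 and 0.045 for Bcl11b (adjusted p = 0.334 and 0.427). Such a p was found for 11.3% of all genes, and 0 genes were called (0.0%). After centring on the array medians 0 of 9 factors had an unadjusted p under 0.05 between litters, against 15.1% of all genes. The number of factors higher in KIS-ko varied from litter to litter, as did the array medians. In litter 4, the one litter whose KIS-ko array had the higher median, 9 of 9 factors were higher in KIS-ko, as were 69.7% of all genes there. In litter 1, 2 of 9 were higher, against 35.3% of all genes, and in litter 6, 3 of 9 against 29.6%. In litter 2, however, 7 of 9 factors were higher while only 30.9% of all genes were, and in litter 5, 6 of 9 against 33.9%. In litter 3 the counts were 5 of 9 and 51.0%.

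**Figure D3:**
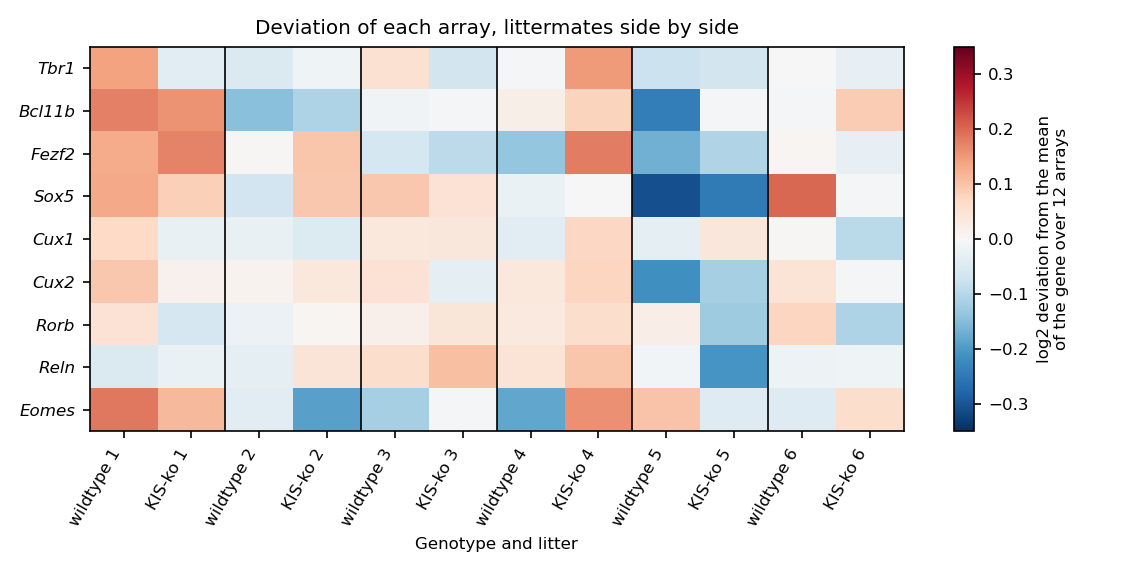
Gene value of the 9 factors (lines) on the 12 arrays (columns, littermates side by side) as the deviation from the mean of the gene over the arrays, on the log2 scale given by the colour bar. Sox5 and Cux2 are low in both pups of litter 5, and all 9 factors are higher in the KIS-ko than in the wildtype pup of litter 4.

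Single probesets were compared to see whether the exons of a gene moved together. For Bcl11b 7 of 7 probesets were higher in KIS-ko (0.0094 to 0.19) and for Fezf2 7 of 8, while 12 of 16 were lower for Rorb. Reln (35 lower of 74), Cux1 (19 of 44), Cux2 (16 of 32) and Tbr1 (6 of 12) were split about evenly. Sox5 had 11 of 18 lower, and Eomes 9 of 13. Over the 9 factors 109 probesets were lower and 115 higher, beside 66.2% lower of all probesets. No probeset of the 9 was called (0.00487% of all), and 8 of 224 (3.57%) had an unadjusted p under 0.05, against 6.63% of all probesets.

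The 8 probesets with an unadjusted p under 0.05 lie in Eomes (2), Cux2 (3), Bcl11b, Tbr1 and Rorb (1 each), and those of Eomes lie close together at its 5′ end. The one at 118388248 to 118388275 had a lowest, median and highest signal of 1750, 1841 and 2230 in wildtype and of 1969, 2290 and 3089 in KIS-ko. It was higher in KIS-ko in 6 of 6 litters, though the groups overlapped, and the log2 difference of 0.32 had a standard error of 0.099 (adjusted p = 0.742 from limma). The one at 118388165 to 118388191 was higher by 0.37 (standard error 0.131, adjusted p = 0.751 from limma), in 5 of 6 litters. Most of the other Eomes probesets went the other way, since 9 of all 13 were lower, by at most 0.071. Cux2 had 1 probeset higher, by 0.22, and a neighbouring pair lower by 0.22 and 0.18, each with an adjusted p of 0.751 from limma. The other 3 were under the control level, with mean signals of 416 in Bcl11b (0.19), 400 in Tbr1 (-0.28) and 109 in Rorb (-0.26), and the same adjusted p of 0.751 from limma. The splicing index, which is the value of a probeset minus that of its gene, was called for 0 of 224 probesets (0.000985% of all). Before adjustment 8 of 224 (3.57%) were under 0.05, against 6.11% of all.

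The probesets above the control level were unevenly placed along some of the genes, as described after the values were seen. Probes differ in brightness, so a probeset under this level does not show that its part of the transcript was missing or scarcer. Reln was above the control level in 73 of 74 probesets, with signals from 439 to 7598. The main transcript of Cux1 in the table was above it in 18 of 19 probesets up to probeset 26 from the 5′ end, but in only 1 of 7 after that (132 to 896). A second Cux1 transcript that the table lists further downstream was above it in 9 of 10 probesets (663 to 3649). The Cux1 gene is known to give rise to CASP as well, a Golgi protein without the DNA-binding domains, so that probesets of shared exons do not tell these products apart. Which of the other probesets belong to CASP, those of the downstream transcript included, was not established here. The gene value of Cux1 averages over all 44 probesets, so it cannot be read as that of the homeodomain factor alone. The log2 differences of the downstream probesets lay between -0.16 and 0.12. In Rorb the first 3 probesets were under the control level (109 to 244), and 10 of the following 13 were above it. The transcripts of Rorb differ at this 5′ end in the table.

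**Figure D4:**
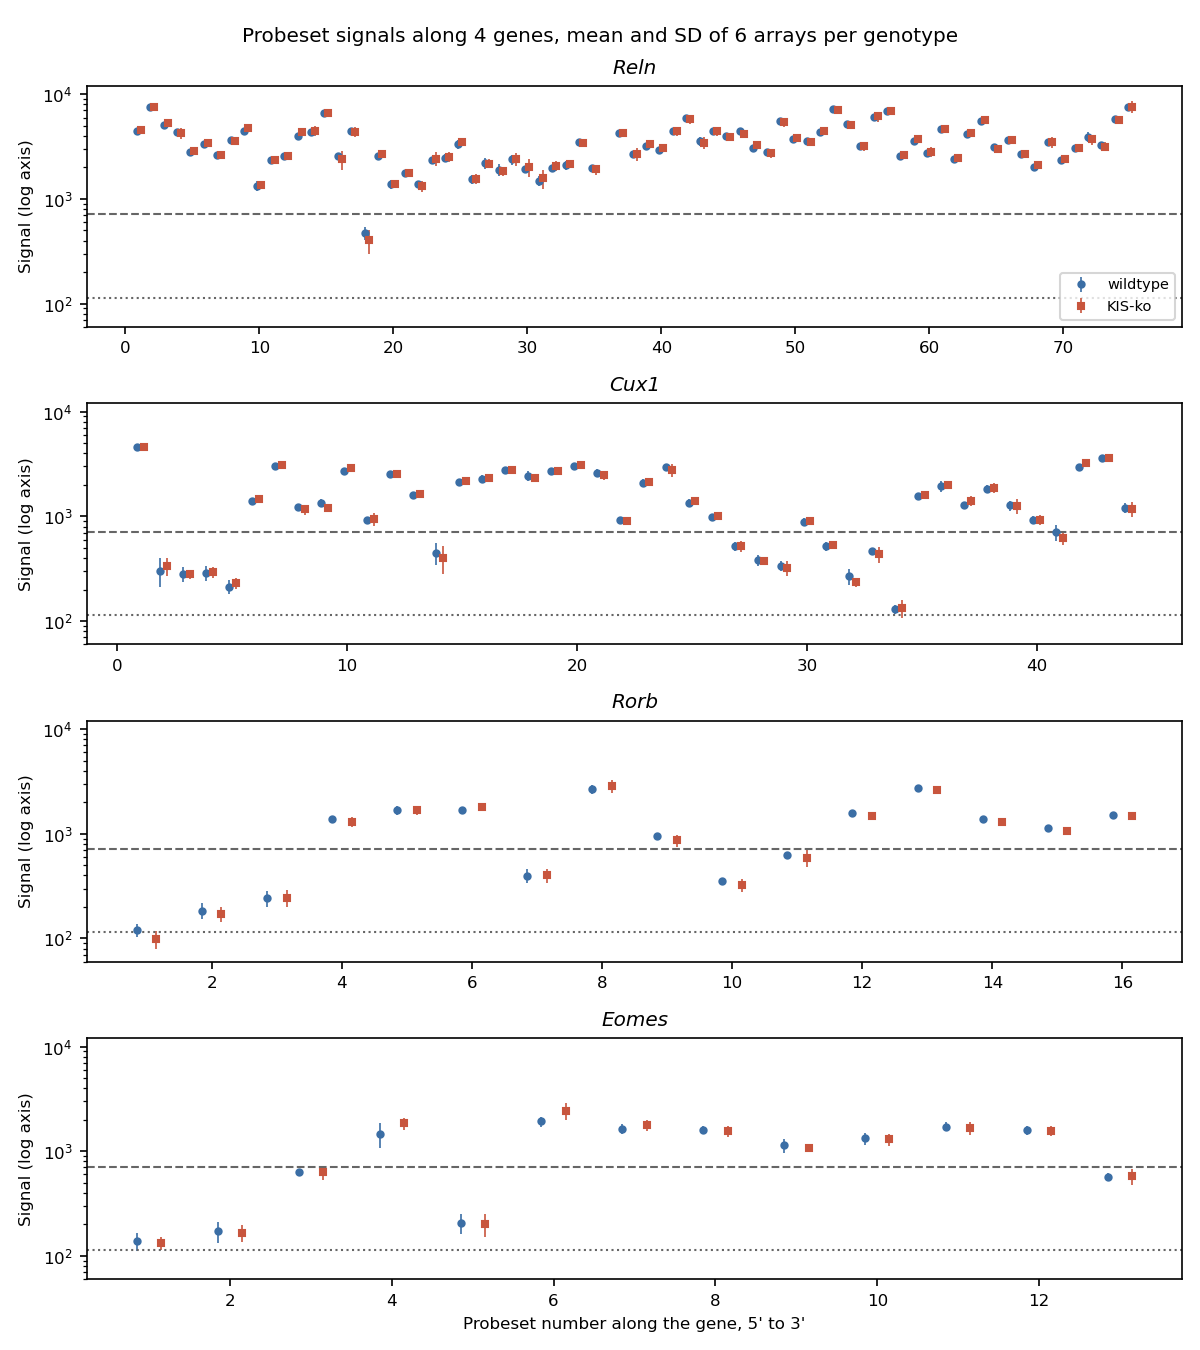
Mean signal of each probeset (vertical log axis, linear intensity) in its order from 5′ to 3′ (horizontal axis) along Reln, Cux1, Rorb and Eomes, with the SD over 6 pups, in wildtype and KIS-ko. The dashed line is the 95th percentile of the intron controls (713) and the dotted line their median (114). Wildtype and KIS-ko follow each other along each gene, and the first 3 probesets of Rorb and several of Cux1 lie under the dashed line.

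The levels of the 9 factors over the 12 arrays were set against each other after the median of each array was subtracted. Correlations over these arrays are a description, as they pool both genotypes and littermates share a litter. Of 36 pairs of factors 29 had a Pearson r above 0, with a median of 0.296. The share of such pairs among all genes was not computed, so this count does not show that the factors vary together more than other genes. The highest were Rorb with Reln (r = 0.748, Spearman rho = 0.769) and Cux2 with Sox5 (r = 0.712, rho = 0.455). Eomes and Sox5 had the lowest (r = -0.449, rho = -0.469). The order depended on the centring, since without it 31 of 36 pairs were above 0 with a median of 0.391, Cux2 with Sox5 was highest (0.860, and Rorb with Reln 0.650), and Reln with Eomes lowest (-0.108, and Eomes with Sox5 -0.089).

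Among 7247 other genes above the control level, the one most like Sox5 was Celf2 (r = 0.943), an RNA-binding protein, followed by Myt1l (0.941), a zinc finger factor of neurons, and Ppfia2 (0.928), a liprin of synapses. Cux1 was most like Stx12 and Pcdh17 (both 0.946) and Phactr1 (0.932). Reln was most like Mycbp2 (0.912), Dync1h1 (0.897), the heavy chain of cytoplasmic dynein, and the kinesin Kif1b (0.897). Bcl11b was most like Atp6v1g1 (0.925), Dbndd1 (0.898) and Syt6 (0.871). Rorb was most like Atf2 (0.898), Cnksr2 (0.869) and Cdk8 (0.868), and Cux2 most like Polr2a (0.902), Cacna1h (0.870) and Plcg1 (0.869). For Eomes these were Ruvbl2 (0.874), Hist2h3c1 (0.863) and Rps24 (0.860), for Tbr1 Dcun1d3 (0.858), Fam84a (0.832) and Usp4 (0.827), and for Fezf2 Mrgpre (0.829), Adss (0.827) and Cd276 (0.773). None of the 9 factors was among the 3 genes most like another one.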

How the data were processed

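Total RNA of 12 newborn brains was measured on exon arrays. According to the methods, the authors used Affymetrix Expression Console, with quantile normalization of exons and PLIER estimates of each probeset. The values they deposited are linear intensity, 1 per probeset and array, and the genome build of the listed positions is not given in the sources used here. Main probesets with a symbol were kept (221417), and those whose SD exceeded 0.4 of the mean in 1 or both genotypes rejected as in the methods (7.20%, among them 1 of Tbr1 and 1 of Reln). Genes, probesets and splicing indexes were each fitted by limma 3.58.1 (R 4.3.3) to log2(signal + 16) with genotype and litter as terms, and p-values were adjusted by Benjamini-Hochberg over all features (threshold 0.05). The methods state no test across genes. Splicing indexes were computed in genes with at least 3 probesets. The pairing comes from the litter in the labels. The correlation between deviations of littermates over all genes ranged from -0.114 to 0.473 (mean 0.100), against a mean of -0.019 between litters. No 2 arrays were identical, and log2 values of arrays correlated at 0.977 to 0.990. Scripts were tested on simulated data. The number of arrays and the signal over background limit the precision.

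The members and lists were chosen with earlier results of these data known. The text names all 9 factors, Uhmk1, the 3 genes most like each factor by Pearson r, and the gene of largest difference in each list of other cell types. Other genes of the lists are named for their roles, after their values were seen. Alternatives were other pseudocounts, filters, scalings, summaries and moderation, a fit without the block and each litter left out.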

Additional observations from a re-analysis of the deposited data

Results flagged for a closer look

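Among 27 groups of 6 values (each factor in wildtype, in KIS-ko and as the difference by litter), 5 held a value far from the other 5 by Dixon's criterion. For independent groups chance gives about 1 such group in 20. The 27 groups are not independent, since they share arrays and the differences are made from the same values, so no excess can be read from this count. For Tbr1 the KIS-ko pup of litter 4 was at a gene value of 11.40, with the others between 11.19 and 11.24. The Fezf2 difference of the same litter was 0.31, with the others between -0.033 and 0.094. In litter 5 the wildtype value of Cux2 was 9.60, with the others between 9.83 and 9.91. The KIS-ko value of Sox5 in litter 5 was 9.42, with the others between 9.66 and 9.76, and its wildtype littermate was the lowest of its group too. The Reln difference of litter 5 was -0.20, with the others between 0.0024 and 0.076. All 5 values come from litters 4 and 5. The KIS-ko array of litter 4 was the only one with a median gene value above that of its littermate (0.099 on the log2 scale). With the array medians of the gene values subtracted, the Fezf2 difference of litter 4 was 0.21, with the others between -0.018 and 0.23, and the Tbr1 value of its KIS-ko pup 11.34, with the others between 11.19 and 11.31. In litter 5 the wildtype value of Cux2 was then 9.66 (others 9.76 to 9.89), the KIS-ko value of Sox5 9.53 (others 9.60 to 9.83) and the Reln difference -0.15 (others -0.050 to 0.21), so that these too lay nearer to the others.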

How the results depend on the processing

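No factor was called in any of the 17 alternatives, with adjusted p from 0.357 to 1.00. Bcl11b (0.035 to 0.12) and Fezf2 (0.028 to 0.13) stayed higher and Rorb (-0.094 to -0.0049) lower in all of them. The cause of the changes below was not tested except where named. The fit without the litter block left the differences as they were, and called 26 probesets in place of 10 and 19 splicing indexes in place of 2, with 0 of the 9 factors in each; without the pairing 1 gene was called, as before. Genes called were 2 at a pseudocount of 64, without the filter on relative standard deviation or with trend and robust moderation, 5 at a filter of 0.2 or without dim probesets, and 1 to 2 with a litter left out (2 without litter 3). The factors that were lower were 3 without dim probesets, 1 on centred or quantile-normalized arrays, 2 with the median over probesets, and 3 to 7 with a litter left out (3 without litter 1). With unadjusted p under 0.05 there were 2 on centred and 1 on quantile-normalized arrays (Fezf2). The median difference of the 9 was 0.051 on centred arrays and -0.019 to 0.014 with a litter left out. Probesets called were 23 at a pseudocount of 64, 19 at a filter of 0.2, 30 without dim probesets, 16 on centred arrays, 91 with trend and robust moderation and 9 to 12 with a litter left out. Splicing indexes called were 10 at a pseudocount of 64, 5 at a filter of 0.2, 18 without dim probesets, 0 with probesets matching 1 place, 7 with trend and robust moderation, and 2 to 3 with a litter left out. None of these calls was of the 9 factors.

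Of 153 combinations of factor and alternative, 28 changed sign. Tbr1 turned to 0.0031 with a filter of 0.2, without dim probesets or with probesets matching 1 place, each of which drops its first probeset, to 0.035 on centred and 0.0082 on quantile-normalized arrays. Cux1 turned to 0.0038 without dim probesets, 0.051 on centred and 0.034 on quantile-normalized arrays, and 0.0084 with the median over probesets. Cux2 turned to 0.047, 0.036 and 0.017, and Sox5 to 0.046, 0.033 and 0.0053, on centred arrays, on quantile-normalized arrays and with the median. Reln turned to -1.4e-05 at a pseudocount of 1. With a litter left out, Tbr1 lay between -0.056 and 0.010 (turning without litter 1), Cux1 between -0.028 and 0.014 (without 1 or 6), Cux2 between -0.030 and 0.0065 (without 1 or 3), Reln between -0.015 and 0.040 (without any but 5), Eomes between -0.030 and 0.068 (without 4), and Sox5 between -0.043 and 0.030 (without 6).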

Other observations

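Genes of other cell types and brain regions were listed to see what else the total brain holds, and 0 were called (lowest adjusted p = 0.685 from limma). Before adjustment the p was under 0.05 for 4 of 12 Hox genes, 2 of 15 striatal projection neuron genes, 2 of 12 meningeal genes, 1 of 7 astrocyte genes, 1 of 14 cerebellar genes and 1 of 6 erythroid genes, for 0 in the other lists below, and for 6.16% of all genes. Astrocyte genes had 7 of 7 lower and a median of -0.10, and striatal projection neuron genes 13 of 15 lower and a median of -0.062, beside a median of -0.036 over all genes. Gfap, the filament protein of astrocytes, which was not above the control level, differed by -0.27, and Tac1, the substance P precursor of striatal neurons, by -0.20. Meningeal genes had 9 of 12 lower and a median of -0.060, with Foxc2, also not above the control level, at -0.29 and Ptgds, the prostaglandin D synthase, which was above it, at -0.17, lower in 6 of 6 litters (adjusted p = 0.685 from limma). Their part in the values of Bcl11b, which striatal neurons also make, was not tested.

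Interneuron genes had 9 of 18 lower and a median of -0.0022 (Slc32a1, the vesicular transporter of GABA, at -0.097), and thalamic and midbrain factors, of which Rora is also in the upper-layer list, 9 of 13 lower and -0.018 (Slitrk6 at -0.16). Cerebellar granule and rhombic lip genes had 9 of 14 lower and -0.012 (Meis1 at -0.15), and olfactory bulb glutamatergic genes 5 of 7 lower and -0.022 (Lhx2 at 0.069, which like Slc17a7 is also in the list of cortical projection neurons). Hox genes of hindbrain and spinal cord had 8 of 12 lower and -0.040, with Hoxb8 at 0.31, higher in KIS-ko in 6 of 6 litters (standard error 0.087, adjusted p = 0.685 from limma). Of the other Hox genes with an unadjusted p under 0.05, Hoxa5 was at 0.22, Hoxc4 at 0.19 (not above the control level) and Hoxb4 at -0.20. Choroid plexus genes had 4 of 8 lower and a median of 0.0014, oligodendrocyte lineage genes 7 of 10 and -0.037 (Cnp at -0.14), microglial genes 7 of 10 and -0.023, endothelial genes 7 of 9 and -0.042 (Slc2a1 at 0.13), and erythroid genes 1 of 6 and 0.024. The largest differences of the choroid plexus, microglial and erythroid lists were those of Kl, Emr1 and Hbb-bh1, which were not above the control level.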
